A study of Mus musculus with 4 samples.

Results

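Some stretches of the genome are read into RNA from both strands. In the mouse heart, 2 lists of m6A peaks contained peaks that lay on top of an opposite-strand peak of another gene. Members were chosen by the called positions alone, as deposited by the authors: a peak was taken when its exonic blocks had 1 base or more in common with those of an opposite-strand row, of another gene ID, in its own list. Fold and p played no part beyond the calling of the peak. In the list from Wtap-CKO hearts, 1618 of 21179 peaks met this rule, which is 7.64% (95% interval 7.29 to 8.01). In the list from Wtapflox/flox hearts, 1607 of 20766 peaks met it, which is 7.74% (7.38 to 8.11). Together these were 3225 of 41945 listed peaks. A plus-strand peak and a minus-strand peak that overlapped in this way are called a pair, and there were 865 pairs in the Wtap-CKO list and 856 in the Wtapflox/flox list.

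The study immunoprecipitated RNA with a polyclonal antibody to N6-methyladenosine (m6A), sequenced the bound and the input RNA, and asked how the m6A map of the heart depends on WTAP. The Wtap-CKO libraries came from hearts of 8 mice and the Wtapflox/flox libraries from hearts of 7 mice, all at 4 days of age, pooled before fragmentation. Each genotype thus had 1 immunoprecipitated and 1 input library, 4 in all. The labels name the floxed allele in the controls and do not name the Cre driver or the cell type it acts in, and the titles of the knockout samples use another abbreviation than the genotype label. With no replicate library, no difference between the genotypes can be set against a spread between animals, and no test was run. Intervals on shares are exact Clopper-Pearson intervals, and intervals on medians come from order statistics. These intervals hold for counting error alone, as if each peak stood by itself, although the 2 peaks of a pair, and peaks of one gene, are not. Read counts are not part of the lists, and library depth is unknown.

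The mark m6A is the most common internal modification of messenger RNA. A writer complex places it, in which METTL3 is the enzyme, METTL14 helps to bind the RNA, and WTAP holds the enzyme pair in nuclear speckles. Natural antisense transcripts arise where neighbouring genes run into each other at their ends, start from a shared promoter region in opposite directions, or lie one inside the other. In the heart, known examples include Mhrt, which is transcribed against Myh7, and Hand2os1, which is transcribed away from Hand2. The sources used here do not give whether reads were assigned to genes by strand. Unless they were, reads from a gene and from its antisense partner cannot be told apart, and every fold below may hold reads of both. The fold of a peak is the authors' own ratio of immunoprecipitated over input reads for that peak, and folds are ranked and described inside one list at a time. Peak positions are in build GRCm39.

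2 promoters show what a shared start looks like on paper. Hand2, a transcription factor of the developing heart, and Hand2os1 start away from each other, as do Jun, a subunit of the AP-1 transcription factor, and Junos. Both gene pairs formed pairs of peaks in both lists. The windows run from 250 bases before to 50 bases after each gene's start, from RefSeq in build GRCm38.p6, which is not the build of the peaks. Capitals mark the bases that also lie in the window of the opposite-strand gene, 223 bases for Hand2 and 194 for Jun. The Hand2 window is chr8:57320733-57321032 on the plus strand and the Jun window is chr4:95052173-95052472 on the minus strand.
Hand2: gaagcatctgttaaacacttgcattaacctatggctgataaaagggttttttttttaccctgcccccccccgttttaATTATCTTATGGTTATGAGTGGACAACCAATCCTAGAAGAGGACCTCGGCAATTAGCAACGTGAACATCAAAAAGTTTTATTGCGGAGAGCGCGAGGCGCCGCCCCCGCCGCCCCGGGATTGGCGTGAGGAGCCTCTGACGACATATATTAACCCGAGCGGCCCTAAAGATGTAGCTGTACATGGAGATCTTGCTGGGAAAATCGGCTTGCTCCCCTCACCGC
Jun: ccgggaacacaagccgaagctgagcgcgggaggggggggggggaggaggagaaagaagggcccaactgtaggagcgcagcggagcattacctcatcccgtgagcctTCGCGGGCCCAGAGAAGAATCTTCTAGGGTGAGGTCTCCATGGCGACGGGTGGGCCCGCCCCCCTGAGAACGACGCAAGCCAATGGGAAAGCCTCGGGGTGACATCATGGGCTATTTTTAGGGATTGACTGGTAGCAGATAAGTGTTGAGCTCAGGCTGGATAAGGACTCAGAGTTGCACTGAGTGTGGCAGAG

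4 of the gene pairs set a microRNA gene against a protein-coding gene. The mature sequences are shown because a peak of under 100 bases listed for such a gene covers little beyond its hairpin, and capitals mark the seed, bases 2 to 8. The seeds printed differ from one another.
mmu-miR-8114: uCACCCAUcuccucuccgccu
mmu-miR-671-5p: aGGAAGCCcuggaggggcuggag
mmu-miR-671-3p: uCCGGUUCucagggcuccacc
mmu-miR-6244: gGGGGCGUggaauuaucgggu
Mir8114, the gene of the first, paired with Teddm2 in both lists. The folds were 3.05 for Mir8114 and 3.13 for Teddm2 in the Wtap-CKO list, and 4.09 and 9.62 in the Wtapflox/flox list. The 84 bases of the Mir8114 peak lay wholly inside the Teddm2 peak in each list. Mir671 paired with Smarcd3, a subunit of the BAF chromatin remodelling complexes, in the Wtap-CKO list with folds of 9.38 and 14.3. Its 98-base peak lay inside the Smarcd3 peak, most of which Smarcd3 shares with Chpf2. Mir1957b, whose sequence is not shown, paired with Wdr59 in the Wtap-CKO list with folds of 5.63 and 9.46. Mir6244 paired with Zc3h12c in the Wtapflox/flox list with folds of 8.82 and 24.9. In each of these pairs and lists the microRNA gene had the lower fold of the pair.

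The 2 peaks of a pair mostly lay over the same bases. The shared stretch had a median of 180 exonic bases in the Wtap-CKO list and 190 in the Wtapflox/flox list. That was a median of 95.3% and 95% of the shorter peak of the pair. The shorter peak lay wholly inside the other in 242 Wtap-CKO pairs (28.0%) and in 254 Wtapflox/flox pairs (29.7%). At least 50% of it was shared in 753 and in 735 pairs. Under 25% was shared in 35 and in 42 pairs, and the overlap was thus rarely a mere touch at the ends. In 4 Wtap-CKO pairs and 3 Wtapflox/flox pairs both peaks had the same start and end.

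At the edge of the rule, Cul1, a cullin scaffold of ubiquitin ligases, and A930035D04Rik shared 1 base in the Wtap-CKO list, with folds of 7.5 and 25.3. Rfx7 and Gm27232, with folds of 8.03 and 7.97, missed it by a gap of 2 bases. Mea1 and Klhdc3 shared 3 bases in the Wtapflox/flox list, with folds of 6.82 and 1.87. Spsb3 and Mapk8ip3, with folds of 5.61 and 7.92, abutted without a shared base. In each list 5 such pairs lay outside the rule by 30 bases or fewer, so few pairs missed it narrowly. Pairs that met it as narrowly were not counted.

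Long overlaps lay over the same genes in both lists. Pcdh7, a protocadherin gene, and 4932441J04Rik shared 1696 bases at folds of 9.05 and 9.13 in the Wtap-CKO list. They shared 1763 bases at folds of 11.4 and 12.5 in the Wtapflox/flox list. In this long pair the plus-strand and minus-strand folds of a list were close to each other. A shorter pair of these genes beside it had folds further apart. Pcdh7 had 7.5 there against 17.5 for 4932441J04Rik in the Wtap-CKO list, and 5.88 against 13.7 in the Wtapflox/flox list. Fen1, a flap endonuclease of DNA replication, and Gm10143 formed 2 pairs in the Wtap-CKO list, of 1071 bases (7.34 and 7.34) and 352 bases (6.08 for Fen1 and 5.94 for Gm10143). In the Wtapflox/flox list 1 pair took in that stretch, with 1547 shared bases and folds of 12.5 and 12.8. Chpf2, of chondroitin synthesis, and Smarcd3 shared 1344 bases at folds of 15 and 14.3 in the Wtap-CKO list, and 1258 bases at folds of 8.58 and 9.22 in the Wtapflox/flox list.

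The folds of the 2 peaks of a pair were alike. The median absolute difference of log2 fold was 0.19 (0.16 to 0.24, 865 pairs) in the Wtap-CKO list and 0.22 (0.20 to 0.26, 856 pairs) in the Wtapflox/flox list. On the linear scale the larger fold was a median of 1.14 and 1.17 times the smaller. Exactly the same listed fold stood on both strands in 87 Wtap-CKO pairs (10.1%) and 77 Wtapflox/flox pairs (9%). The folds were within 10% of each other in 369 (42.7%) and 344 (40.2%) pairs, and 2-fold or more apart in 147 (17.0%) and 155 (18.1%). Across pairs, Pearson's r of the log2 folds was 0.763 in the Wtap-CKO list and 0.743 in the Wtapflox/flox list, and Spearman's rho was 0.760 and 0.731. Both points of a pair come from the same libraries and mostly the same bases, so these correlations are descriptions only.

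**Figure D1:**
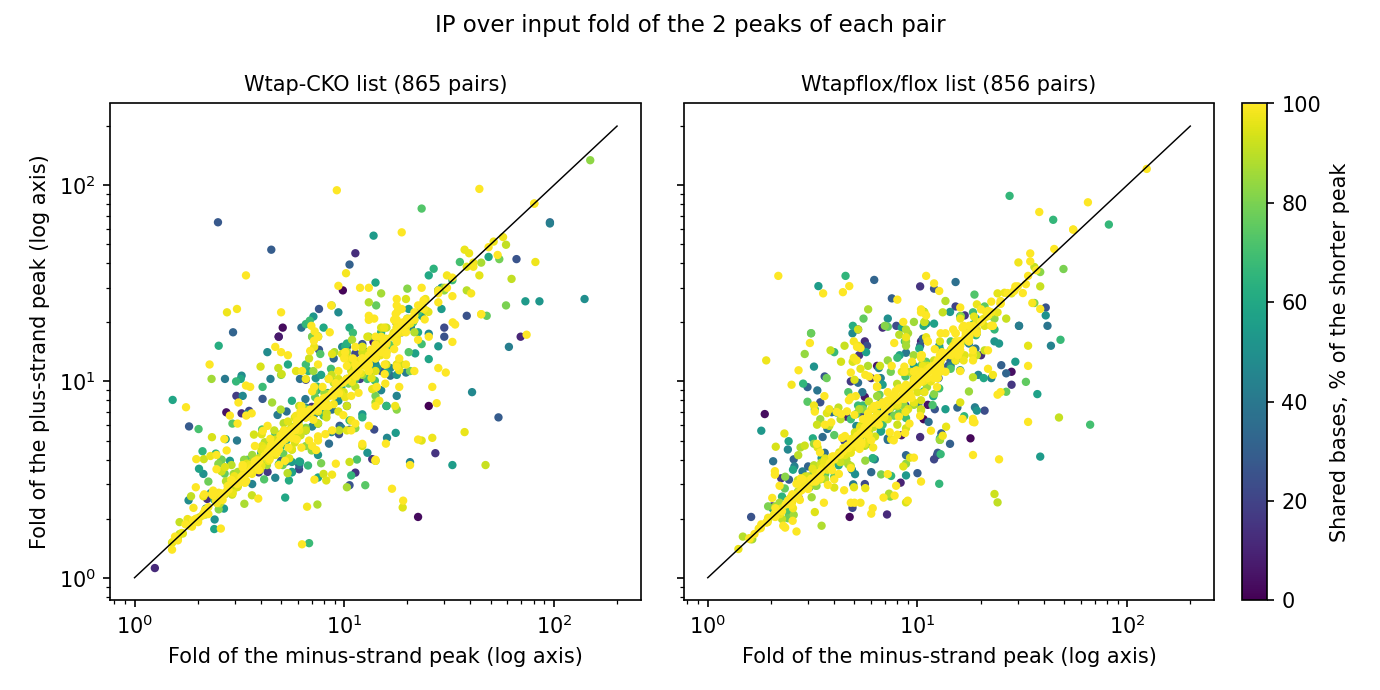
Fold of the plus-strand peak against fold of the minus-strand peak for each pair, on log axes, with the 865 Wtap-CKO pairs in the left panel and the 856 Wtapflox/flox pairs in the right. Colour gives the shared bases as a percent of the shorter peak, and the line marks equal folds, around which most points lie (r of the log2 folds 0.763 and 0.743).

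The likeness of the folds went with the extent of the overlap. In the Wtap-CKO list the median absolute difference of log2 fold was 0.67 over 35 pairs that shared under 25% of the shorter peak. It was 0.63 over 77 pairs that shared 25 to under 50%, 0.47 over 127 pairs that shared 50 to under 75%, 0.12 over 384 pairs that shared 75 to under 100%, and 0.16 over 242 pairs in which all of it was shared. The same classes of the Wtapflox/flox list gave 0.90, 0.64, 0.45, 0.13 and 0.18. Thus both lists had their small differences in the 2 classes with the most overlap. Width mattered within those classes. Pairs that shared at least 75% and whose widths were within 1.25 times of each other had a median difference of 0.07 in both lists (360 Wtap-CKO and 358 Wtapflox/flox pairs). Where one peak was over 2 times as wide as the other, it was 0.88 (114 pairs) and 0.98 (119 pairs).

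Overlapping peaks of different genes on one and the same strand give a yardstick. There were 335 such pairs in the Wtap-CKO list and 324 in the Wtapflox/flox list. Their median absolute difference of log2 fold was 0.08 in both (intervals 0.06 to 0.11 and 0.06 to 0.12), and they shared a median of 98.8% and 98.4% of the shorter peak. Their folds were within 10% of each other in 62.1% and 58.3%. Where 75 to under 100% of the shorter peak was shared, the same-strand median was 0.07 in the Wtap-CKO list and 0.06 in the Wtapflox/flox list, against 0.12 and 0.13 for opposite strands. Where 50 to under 75% was shared, it was 0.20 and 0.42, against 0.47 and 0.45. Widths were not matched between the 2 kinds of pairs. The opposite-strand pairs of like width described above had 0.07 in both lists, and same-strand pairs were not split by width. Whether strand itself plays a part was thus not tested.

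**Figure D2:**
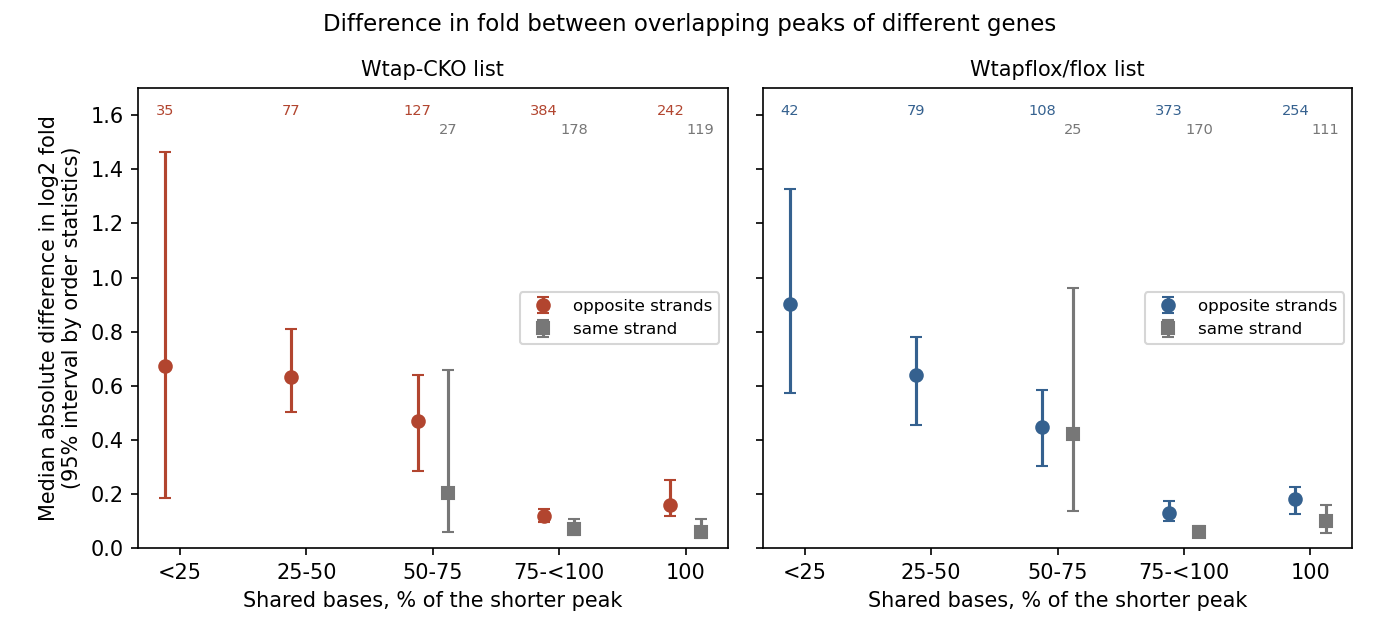
Median absolute difference in log2 fold between overlapping peaks of different genes, by the share of the shorter peak that overlaps, for opposite-strand pairs (coloured circles) and same-strand pairs (grey squares). The Wtap-CKO list is on the left and the Wtapflox/flox list on the right, bars are 95% intervals by order statistics, numbers at the top are pairs, and classes under 20 pairs are left out; opposite-strand medians drop from 0.67 to 0.16 and from 0.90 to 0.18 between the least and the full overlap.

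The widest gaps in fold, among pairs that shared at least 50% of the shorter peak, mostly set a named gene against a Gm gene. Tcim, a regulator of cell growth signalling, had a fold of 47.2 in the Wtap-CKO list where Gm26714 on the other strand had 3.75. The peaks shared 91.6% of the shorter one, but the Tcim peak was 1273 bases wide and the Gm26714 peak 238. Most of the Tcim peak thus lay outside the overlap, and the part of width in these gaps was not tested. Clmp, a cell adhesion gene, had a fold of 94.2 in the Wtap-CKO list against 9.22 for Gm16096, with widths of 1968 and 328 bases. In the Wtapflox/flox list Clmp had folds of 19 and 5.04 in 2 peaks, against 7.22 for the Gm16096 peak that overlapped both. Notch1, the receptor gene, shows both situations on one peak. Its Wtap-CKO peak, with a fold of 19 and 660 bases wide, overlapped a peak of 0610009E02Rik with a fold of 19.6 over 418 bases. It also overlapped a 120-base peak of Gm13568 with a fold of 2.28 over 114 bases. Notch1 and 0610009E02Rik both had 16.1 in the Wtapflox/flox list, and Gm13568 formed no pair with Notch1.

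Which strand had the higher fold was not fixed. In 394 gene pairs with exactly 1 pair of peaks in each list, 166 had folds more than 10% apart in both lists. The higher fold was on the same strand in both lists in 101 of them (60.8%, 53.0 to 68.3). In 22 of the 394, both peaks had the same start and end in both lists.

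Genes with little annotation were common among the paired peaks. Symbols made of Gm and digits, given to gene models without another name, made up 23.4% of the paired peaks and 4.11% of the other peaks of the Wtap-CKO list. They made up 21.5% and 4.13% of the Wtapflox/flox peaks. Symbols that end in Rik, given to cDNA clones, made up 9.52% against 2.02% in the Wtap-CKO list and 10.3% against 2.44% in the Wtapflox/flox list. Read the other way, 32.0% of all Gm peaks, 28.0% of all Rik peaks and 5.57% of all peaks with another symbol were paired in the Wtap-CKO list. Among genes whose own description calls them opposite-strand transcripts, 31 of 63 peaks (49.2%) were paired in the Wtap-CKO list and 28 of 68 (41.2%) in the Wtapflox/flox list. Protein-coding genes, as RefSeq types them, held 64.5% of the paired and 93.6% of the other Wtap-CKO peaks, and 66.3% and 93.4% of the Wtapflox/flox peaks.

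Most pairs set such a gene against a named one. A named gene faced a Gm gene in 380 Wtap-CKO pairs (43.9%) and 341 Wtapflox/flox pairs (39.8%). It faced a Rik gene in 143 (16.5%) and 156 (18.2%), and another named gene in 316 (36.5%) and 325 (38%). For many of these genes the overlap was all there was. Every listed peak of the gene was a paired peak for 290 of 320 Gm genes with any (90.6%), 109 of 128 Rik genes (85.2%) and 354 of 936 other genes (37.8%) in the Wtap-CKO list. For the Wtapflox/flox list this held for 250 of 288 Gm genes (86.8%), 97 of 127 Rik genes (76.4%) and 340 of 907 other genes (37.5%). A gene with a single listed peak meets this by definition once that peak is paired. The number of peaks a gene had was not matched between these classes, so the shares are descriptions only.

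Where RefSeq types one gene of a pair as a long non-coding RNA and the other as protein-coding, neither kind stood higher. Of 198 such pairs in the Wtap-CKO list, the non-coding gene had the higher fold in 88, the coding gene in 92, and the folds were equal in 18. Of 190 in the Wtapflox/flox list, the counts were 88, 76 and 26. The median log2 fold of the non-coding minus the coding gene was 0.00 in both lists. The coding peak was wider, with a median of 330 bases in both lists, against 240 bases in the Wtap-CKO and 270 in the Wtapflox/flox list for the non-coding peak.

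The order of the gene ends could be read for the pairs with both genes in the RefSeq table, 502 (58.0%) in the Wtap-CKO list and 517 (60.4%) in the Wtapflox/flox list. Only the order of ends was taken from that table, not its coordinates. Genes that meet at their 3′ ends, here called tail to tail, made up 226 of the placed Wtap-CKO pairs (45.0%) and 254 of the Wtapflox/flox pairs (49.1%). Genes that start away from each other, head to head, made up 212 (42.2%) and 183 (35.4%). The remaining 64 and 80 pairs were nested. Pairs of protein-coding genes were mostly tail to tail, 61.6% of 284 in the Wtap-CKO list and 65.5% of 307 in the Wtapflox/flox list. Pairs of a long non-coding and a coding gene were head to head in 56.1% of 198 and 46.8% of 190.

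**Figure D3:**
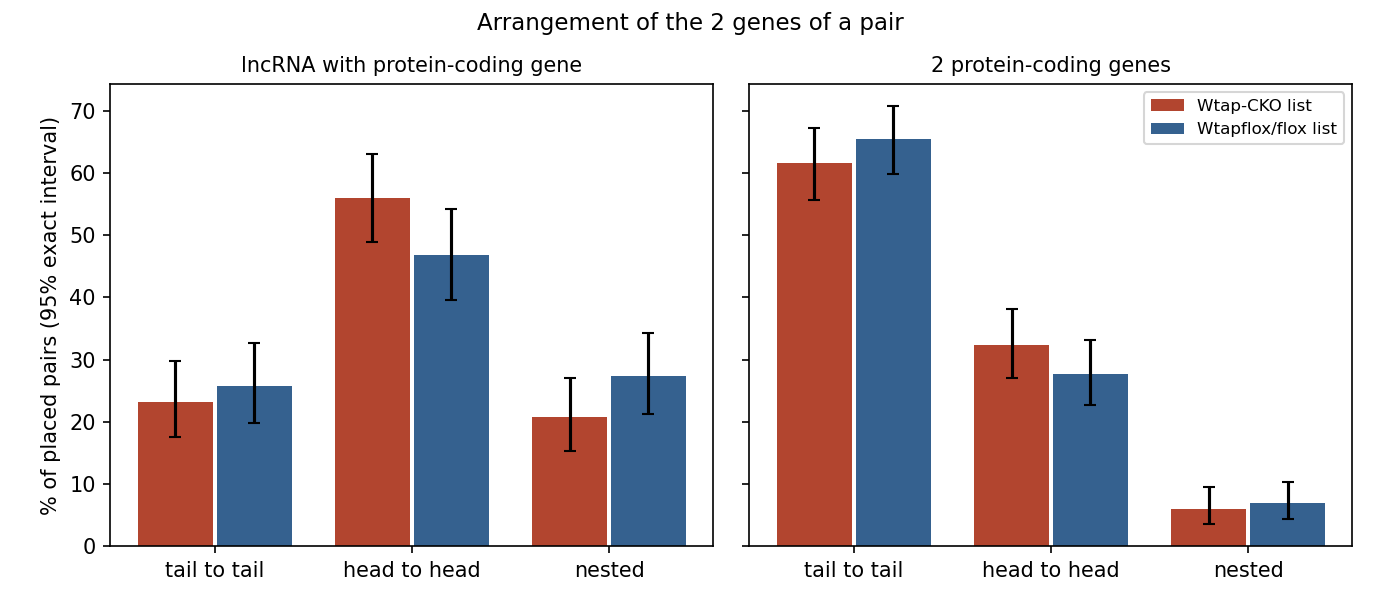
Arrangement of the 2 genes of a pair, as a percent of the placed pairs of a long non-coding with a protein-coding gene (left panel) and of 2 protein-coding genes (right panel), with exact 95% intervals. In each group of bars the Wtap-CKO list stands left of the Wtapflox/flox list; coding pairs were tail to tail in 61.6% and 65.5%, and non-coding with coding pairs were head to head in 56.1% and 46.8%.

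Tail-to-tail pairs had the more even folds. Their median absolute difference of log2 fold was 0.11 in the Wtap-CKO list (0.08 to 0.14) and 0.12 in the Wtapflox/flox list (0.08 to 0.18). Head-to-head pairs had 0.30 (0.20 to 0.40) and 0.33 (0.22 to 0.49). The shared share of the shorter peak moved the same way, at 97.8% and 97.6% for tail to tail and 92.9% and 92.9% for head to head, and its part in the difference was not tested. The level of the folds differed too. The median fold of the peaks was 5.69 in tail-to-tail and 8.75 in head-to-head pairs of the Wtap-CKO list, and 6.15 and 8.68 in the Wtapflox/flox list.

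Windows of neighbouring starts can share bases only where the starts lie close, which the arrangement itself largely sets, so the counts that follow are a description. Of 139 head-to-head gene pairs with both windows in the RefSeq table, 66 (47.5%) had windows that shared bases, by a median of 193.5. None of 148 tail-to-tail and 2 of 42 nested gene pairs did. Base composition, which the rule did not use, was the same for head-to-head and tail-to-tail gene pairs, with a median G+C content of 61.7% in each. Nested gene pairs had 56.5%. The median number of CG dinucleotides was 23 in head-to-head and 21 in tail-to-tail windows, and 12 in nested ones. Over all 27025 windows of the table the medians were 52.7% and 7, so by these medians the starts of paired genes in each arrangement were richer in G+C and CG than those of the table. That table takes in genes without a listed peak, and genes with unpaired peaks only were not compared. Whether the difference belongs to paired genes or to genes with a peak was therefore not tested.

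Among cardiac genes, Myh7 stood in the densest overlap. Myh7 encodes the slow, fetal myosin heavy chain, and 3 plus-strand transcripts had peaks over its exons in both lists. Mhrt had a fold of 10.8 in the Wtap-CKO list over a Myh7 peak with a fold of 7.76. Mhrt had 5.61 and Myh7 6.71 in the Wtapflox/flox list. Mhrt thus had the higher fold of the pair in the first list and the lower in the second. This Mhrt peak had the same position in both lists, chr14:55210227-55211806, and shared 398 bases with the Myh7 peak in each. Gm29015 overlapped the same Myh7 peak with a fold of 3.83 in the Wtap-CKO list and 3.36 in the Wtapflox/flox list. Gm31251 had 7.08 and 7.83, and its peak also reached a second Myh7 peak, with folds of 3.52 and 3.44. All 4 of these pairs were present in each list.

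Pln encodes phospholamban, the inhibitor of the calcium pump of the sarcoplasmic reticulum. In the Wtap-CKO list it formed 1 pair with Gm47644, with folds of 2.89 for Pln and 1.96 for Gm47644 over 150 shared bases. In the Wtapflox/flox list the pair at the same place had folds of 6.43 and 6.38 over 375 bases. A second pair followed it there, at chr10:53220104-53220404 for Pln, with folds of 2.79 and 2.80 over 301 bases. Both peaks of that second pair had a log10 p of -1440 and were without a counterpart in the Wtap-CKO list. A counterpart is a same-strand peak of the other list with 1 exonic base or more in common.

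**Figure D4:**
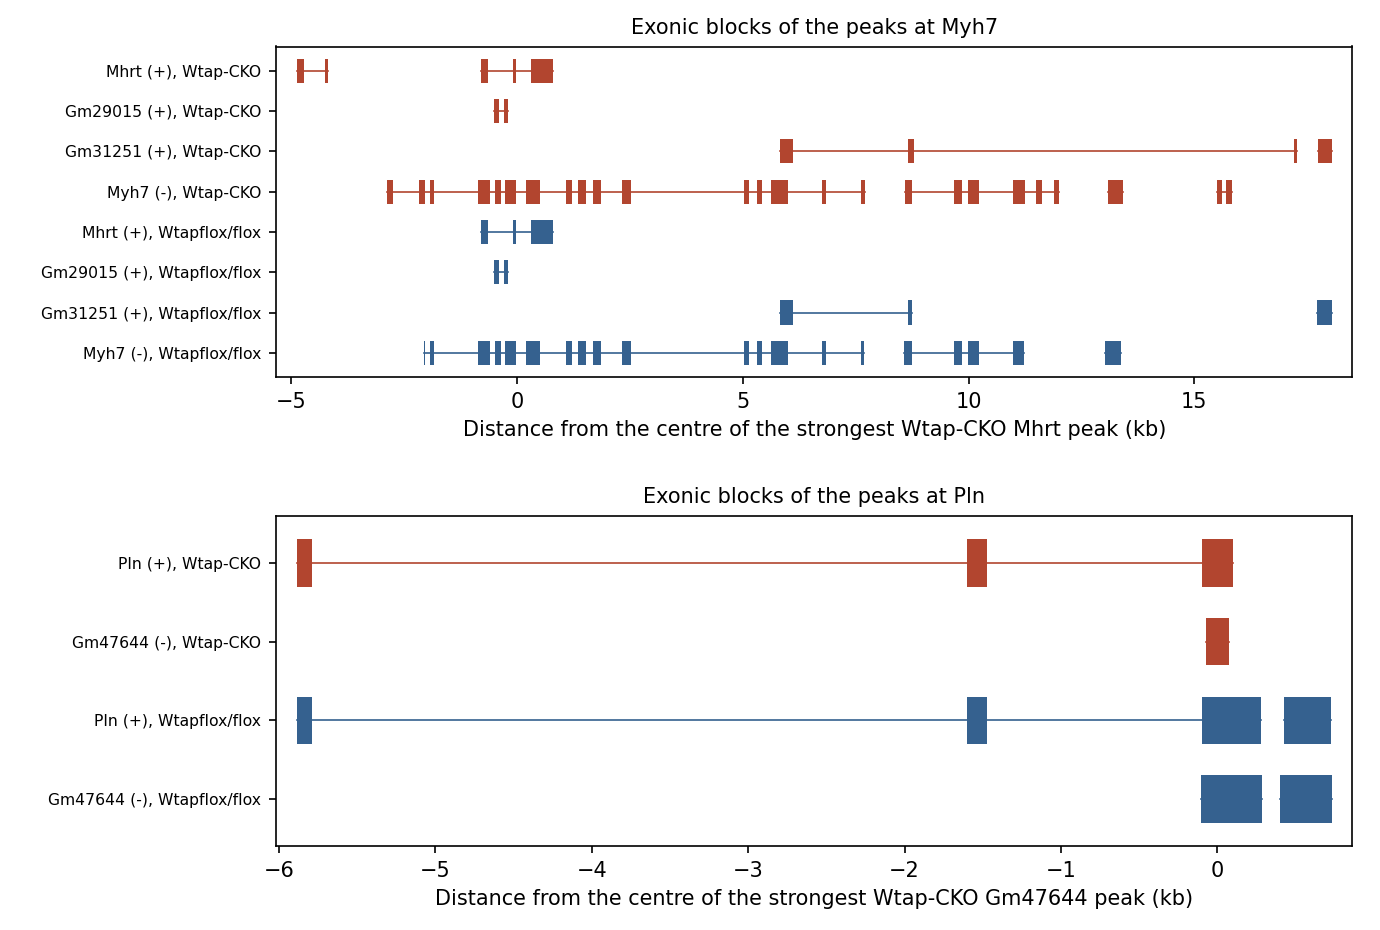
Exonic blocks (boxes, joined by lines within a peak) of the listed peaks at Myh7 and its plus-strand neighbours (upper panel) and at Pln and Gm47644 (lower panel), by distance in kb, with the Wtap-CKO rows above the Wtapflox/flox rows. At Myh7 each plus-strand transcript covers Myh7 blocks in both lists, and at Pln the rightmost pair of peaks, with log10 p of -1440, is present in the Wtapflox/flox rows only.

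Other heart genes were paired in both lists. Hand2 had folds of 17.7 in the Wtap-CKO and 17.3 in the Wtapflox/flox list, against 11 and 8.19 for Hand2os1. Jun had 14 and 20.7, against 10.1 and 10.4 for Junos. In both of these loci the coding gene had the higher fold in both lists. Acadvl, an enzyme of mitochondrial fatty acid oxidation, and Dvl2, of Wnt signalling, met at folds of 1.52 and 1.52 in the Wtap-CKO list and 1.40 and 1.40 in the Wtapflox/flox list. Mt2, a metallothionein, had 5.63 in the Wtap-CKO list, equal to Gm45774, and 2.41 against 2.52 in the Wtapflox/flox list.

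A few were paired in the Wtap-CKO list only. Asph, whose products include junctin of the calcium release unit, and Clvs1 both had 2.14. Cacnb2, a calcium channel subunit, and Gm10849 both had 3.62. Neither peak of these pairs had a counterpart in the Wtapflox/flox list, and their log10 p values were -2.73 and -3.11, near the weak end of the list.

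Paired in the Wtapflox/flox list only, Mef2a, a transcription factor of muscle genes, had a fold of 2.92 where Lysmd4 had 3.28. Cryab, a small heat shock protein of the Z-disc, had 4.07 over Hspb2, a neighbouring gene of the same family, at 3.49. Neither the Mef2a nor the Lysmd4 peak had a Wtap-CKO counterpart, and of the second pair Cryab had one. Chosen after their values were seen, Vcl (vinculin, 2.25, with Ap3m1 at 2.23), Fgf2 (a growth factor, 8.56, with Nudt6 at 8.56) and Dsg2 (desmoglein 2 of the desmosome, 6.51, with Gm16090 at 8.82) were also paired in that list alone, and none of these 6 peaks had a Wtap-CKO counterpart.

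Imprinted and other known antisense loci were represented by 8 of 59 peaks (13.6%) in the Wtap-CKO list, where 7.64% of all peaks were paired, and by 9 of 50 (18%) in the Wtapflox/flox list, where 7.74% were. Gnas, the imprinted gene of a stimulatory G protein subunit, had a fold of 33.3 in the Wtap-CKO list opposite Gnasas1 at 62.8. The same pair had 6.36 and 6.26 in the Wtapflox/flox list. Gnas also overlapped Gm20721, at 11.7 over 4.85 in the Wtap-CKO list and 6.90 over 3.70 in the Wtapflox/flox list. A further pair of Gnas with Gm20721 stood in the Wtap-CKO list only, at 2.27 over 1.91. Its log10 p values were -46.4 and -39.3, and neither of its peaks had a counterpart. Thra, a thyroid hormone receptor, and Nr1d1, the clock repressor REV-ERB alpha, meet at their ends. Their folds were 3.17 and 4.15 in the Wtap-CKO list and 2.17 and 2.41 in the Wtapflox/flox list, over the same 263 bases. Bace1, the beta-secretase gene, and Gm49338 both had 6.83 in the Wtap-CKO list, and 12.2 and 12.6 in the Wtapflox/flox list. Zeb2, a zinc finger repressor, and Zeb2os were paired in the Wtapflox/flox list only, at 4.28 and 3.88. For Gnas with Gnasas1 the 2 folds were nearly equal in one list and far apart in the other.

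By gene list, each heart programme held 5 paired peaks or fewer, with shares on either side of that of all peaks. The share of all peaks that were paired was 7.64% in the Wtap-CKO list and 7.74% in the Wtapflox/flox list. Against that, cardiac transcription factors had 1 of 47 and 2 of 46 peaks paired, sarcomere and Z-disc genes 3 of 84 and 5 of 109, and ion channel and conduction genes 0 of 29 and 0 of 50. Calcium handling genes had 3 of 32 (9.38%) and 2 of 37 (5.41%), stress and fetal genes 2 of 36 (5.56%) and 2 of 24 (8.33%), and fatty acid and energy genes 1 of 22 and 1 of 26. Of the m6A writers, erasers and readers, 1 of 53 and 1 of 52 peaks were paired, both of Cbll1 (HAKAI, a subunit of the writer complex) with Gm29542. Their folds were 4.69 and 4.69 in the Wtap-CKO list, and 13.9 for Cbll1 and 13.8 for Gm29542 in the Wtapflox/flox list. No peak of the mitochondrial genome was paired, 0 of 4 and 0 of 3. All 8 cardiomyocyte markers looked up had a peak in each list, and markers of other cells of the heart had peaks as well (fibroblast 6 and 5 of 6, endothelial 5 and 5 of 5, smooth muscle 5 and 4 of 5, immune 1 and 1 of 3, epicardial 1 and 0 of 3, erythroid 2 and 2 of 3). Of the cardiomyocyte marker peaks, 3 of 22 (13.6%) and 4 of 27 (14.8%) were paired, all of them of Myh7 and Pln. No fibroblast, endothelial or epicardial marker peak was. The paired markers were Myh7 and Pln of cardiomyocytes, Tagln of smooth muscle, Csf1r of immune cells and Ank1 of erythroid cells, in both lists.

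Ranked by the weaker peak of the pair, the best supported Wtapflox/flox pair was the second pair of Pln with Gm47644 described above, which had no Wtap-CKO counterpart. The 2 gene pairs next to it were paired in both lists. H1f0, a linker histone gene, had 19 and Gm49544 20.8 in the Wtap-CKO list, and 12.6 and 29.3 in the Wtapflox/flox list. Hnrnpd, an RNA-binding protein gene, had 20 under Gm17092 at 29.7 in the Wtap-CKO list, and 16.4 under 16.0 in the Wtapflox/flox list. Their log10 p values were all at or under -451. Ccn2, a matricellular growth factor, and Gm15270 had 4.78 and 4.87 in the Wtap-CKO list, and 3.20 and 3.12 in the Wtapflox/flox list. Cdkn1c, an imprinted cell cycle inhibitor, and Gm44732 had 15.8 and 16.5 in the Wtap-CKO list, and 12.9 and 12.7 in the Wtapflox/flox list. Srsf4, a splicing factor, and Gm12992 had 17.1 and 17.2 in the Wtap-CKO list, and 12.8 and 12.5 in the Wtapflox/flox list. In these last 3 loci the 2 strands differed by little in either list.

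Among the best supported Wtapflox/flox pairs, Rnf146, a ubiquitin ligase, and Echdc1 had 5.63 and 5.69 in the Wtap-CKO list, and 18.5 and 18.9 in the Wtapflox/flox list. Tgm2, a transglutaminase, had 4.09 and Gm20412 5.6 in the Wtap-CKO list, and 8 and 9.72 in the Wtapflox/flox list. Jund, a subunit of AP-1, had 6.70 in the Wtap-CKO list over 2 peaks of Gm11175 at 2.85 and 3.41. It had 15.7 over 3.07 and 7.75 in the Wtapflox/flox list. For Rnf146 the 2 strands of a list were close to each other, and for Jund the minus-strand gene model had the lower fold in each pair.

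The genes with the most pairs met the same neighbours several times over. Pigb, of GPI anchor synthesis, took part in 12 pairs, 7 in the Wtap-CKO and 5 in the Wtapflox/flox list, with Ccpg1 and Gm44503. Abi3 took part in 10, 7 and 3, most of them with Zfp652 and Phospho1. Those 2 genes are themselves on one strand and share bases there, so that 1 stretch of Abi3 was counted with both. Sgo2a and Kctd18 formed 9 pairs with each other, 5 and 4, and 4 of the 5 Wtap-CKO pairs had exactly equal folds. Gm26672 took part in 1 Wtap-CKO pair and 8 Wtapflox/flox pairs, all with gamma protocadherin genes. Most paired peaks, 1512 of 1618 and 1508 of 1607, had 1 partner. The most partners were 5, of a Tomm6os peak in the Wtap-CKO list, and 4, of a Pdgfa peak in the Wtapflox/flox list. Some partners are the same gene listed 2 times at nearly the same place, as for Pdgfa, whose partner 6330403L08Rik has such rows. Of the paired peaks, 71 in the Wtap-CKO list and 66 in the Wtapflox/flox list shared bases with another row of their own gene.

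Paired peaks were spread over the chromosomes unevenly, and thinly over X. There, 9 of 480 peaks (1.88%, 0.861 to 3.53) were paired in the Wtap-CKO list and 14 of 473 (2.96%, 1.63 to 4.92) in the Wtapflox/flox list. Chromosome 16 had 3.93% and 2.80%, above X in the Wtap-CKO list and below it in the Wtapflox/flox list. Chromosome 9 had 11% and 10.9%. Each of these 3 chromosomes had an interval that lay outside the share of its whole list, in both lists. The same held for chromosomes 2 and 4, which lay below that share, and for chromosomes 5 and 7, which lay above it.

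Compared with the other peaks, paired peaks were slightly higher and wider. Their median fold was 7.5 (7.34 to 8.27), against 7.03 (6.91 to 7.13) for other peaks, in the Wtap-CKO list. For the Wtapflox/flox list it was 7.46 (7.20 to 8.02), against 7.16 (7.02 to 7.22). Their median exonic width was 270 against 241 bases in the Wtap-CKO list, and 297 against 270 bases in the Wtapflox/flox list. Peaks of 2 or more blocks made up 26.6% against 23.0%, and 24.6% against 20.9%. The intervals of these medians and shares did not overlap except for the fold in the Wtapflox/flox list and the width there, which touched or crossed. A wider peak has more bases with which to meet the rule, so the rule itself favours width. The widths and block shares are therefore descriptions only.

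With all symbols, paired peaks were found again in the other list slightly more often than peaks in general. In the Wtap-CKO list, 341 of 1618 paired peaks (21.1%, 19.1 to 23.1) were without a Wtapflox/flox counterpart, where the background over all peaks of that list was 24.5%. Of the 1607 paired Wtapflox/flox peaks, 343 (21.3%, 19.4 to 23.4) were without a Wtap-CKO counterpart, where the background was 23.9%. These are small departures from the background. In the Wtapflox/flox list the direction was the opposite when Gm and Rik rows were removed before pairing. Then 26.8% of the paired Wtapflox/flox peaks were without a counterpart, against 23.2% of the other peaks. In the Wtap-CKO list it was 22.1% against 24.2%. That removal left only pairs with neither kind of gene, and peaks opposite a Gm or Rik gene became other peaks. With the pairs kept as first formed, peaks with symbols other than Gm and Rik did not turn the order. Those without a counterpart were 22.1% of the paired against 23.4% of the others in the Wtapflox/flox list. In the Wtap-CKO list they were 20.8% against 24.3%. Among strong peaks, those with q at or under 1e-10, the Wtap-CKO list had 17 of 730 paired peaks (2.33%, 1.36 to 3.70) without a counterpart, beside a background of 4.04%. The Wtapflox/flox list had 65 of 801 (8.11%, 6.32 to 10.2), beside a background of 8.72%, which lies inside that interval. The pattern of the whole lists, with more strong peaks missing from the other list on the Wtapflox/flox side, thus stood in the paired peaks too. The number of strong peaks differs between the lists, and the depth behind that is unknown.

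The difference from other peaks was widest in the poorly annotated genes. In the Wtap-CKO list, Gm peaks without a counterpart were 23.0% of the paired and 32.6% of the other Gm peaks. They were 18.6% of the paired and 31.8% of the others in the Wtapflox/flox list. Rik peaks without a counterpart were 18.8% of the paired against 27.8% of the others in the Wtap-CKO list, and 21.7% against 41.1% in the Wtapflox/flox list. For protein-coding genes the shares were 20.2% against 24.1% in the Wtap-CKO list, and 22.5% against 23.4% in the Wtapflox/flox list.

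The 2 peaks of a pair were mostly present or absent together. Both had a counterpart in 645 Wtap-CKO pairs (74.6%) and 630 Wtapflox/flox pairs (73.6%). Neither had one in 136 (15.7%) and in 136 (15.9%), and only 1 of the 2 had one in 84 (9.71%) and 90 (10.5%). Mixed pairs were thus the least common kind in both lists. The 2 peaks of a pair come from the same libraries and mostly the same bases, which largely sets this outcome. These counts are therefore descriptions only.

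**Figure D5:**
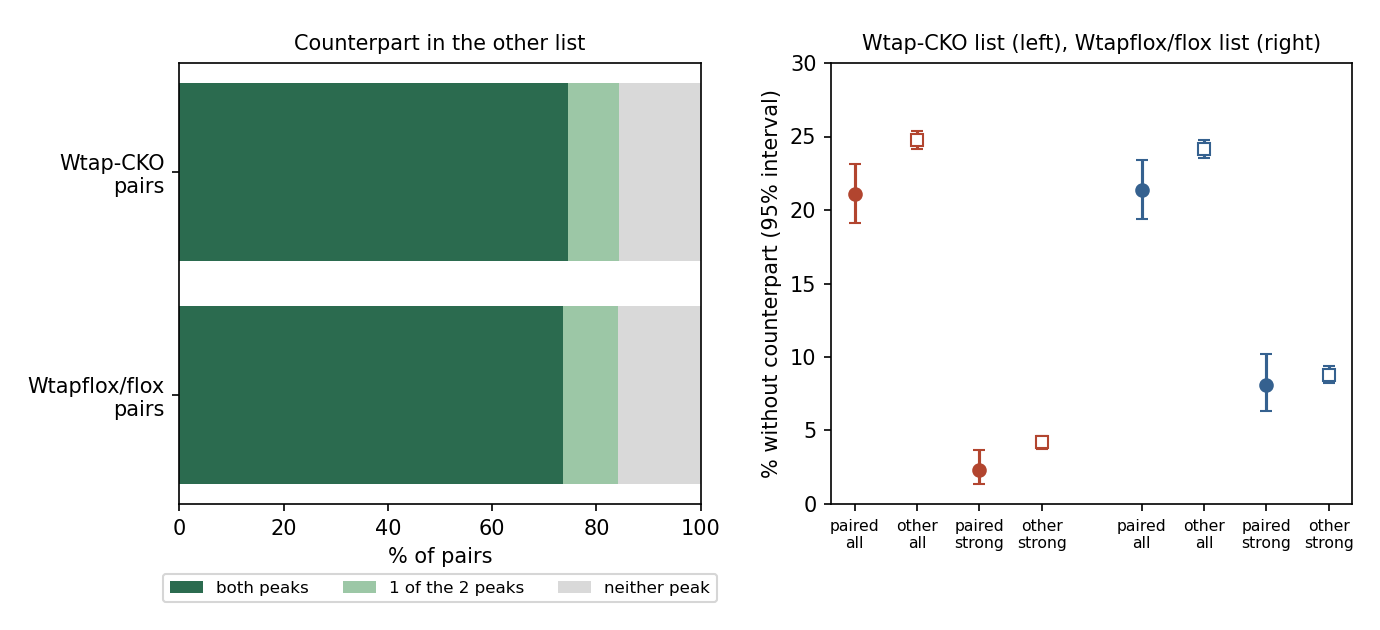
Left, pairs by how many of their 2 peaks had a counterpart in the other list, as a percent of the 865 Wtap-CKO and 856 Wtapflox/flox pairs (both peaks in 74.6% and 73.6%). Right, percent of paired (filled circles) and other peaks (open squares) without a counterpart, over all and over strong peaks, with exact 95% intervals and the Wtap-CKO list left of the Wtapflox/flox list; strong paired peaks stand at 2.33% and 8.11%.

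Counted by genes, 723 gene pairs were formed in the Wtap-CKO list and 694 in the Wtapflox/flox list, 871 in all, and 546 of them were in both. There were 177 in the Wtap-CKO list only and 148 in the Wtapflox/flox list only. The 546 shared gene pairs were 75.5% of the Wtap-CKO and 78.7% of the Wtapflox/flox gene pairs. Counted by pairs of peaks, 666 of the 865 Wtap-CKO pairs (77.0%) and 697 of the 856 Wtapflox/flox pairs (81.4%) had both their genes paired in the other list. With 2 strong peaks, this was 326 of 335 (97.3%, 95 to 98.8) and 338 of 369 (91.6%, 88.3 to 94.2). Pairs not found in the other list were weaker, with a median log10 p of the weaker peak of -4.19 in the Wtap-CKO and -4.70 in the Wtapflox/flox list. For the pairs found it was -10.8 and -10.4.

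Head-to-head pairs were found in the other list in 72.2% of the Wtap-CKO cases (65.6 to 78.1) and 87.4% of the Wtapflox/flox cases (81.7 to 91.9). Tail-to-tail pairs were found in 84.1% (78.6 to 88.6) and 77.6% (71.9 to 82.5). The order of the 2 arrangements was therefore opposite in the 2 lists. The numbers of pairs moved with it, 212 head to head and 226 tail to tail in the Wtap-CKO list and 183 and 254 in the Wtapflox/flox list, and their part in it was not tested.

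Among the best supported pairs of the Wtap-CKO list whose genes were not paired in the other were Rcn3, a calcium-binding protein of the secretory pathway, with Gm45669 (folds 4.08 and 9.38), and Tril, a Toll-like receptor accessory protein, with Gm16499 (32.9 and 20). Tril with Gm16499 is a special case, since this pair did form elsewhere in the gene in both lists under another ID of one of its genes. Dph5, of diphthamide synthesis, and A930005H10Rik had 13.1 and 11, and neither peak had a counterpart. Gadd45gip1 and Dand5 had 3.13 and 2.91, and Gadd45gip1 alone had one. The best supported pairs of Nudt16l1 with Gm16861 and of Gpank1 with Gm20522 were ones in which the named gene's peak had a counterpart and the Gm gene's peak did not.

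The corresponding best supported Wtapflox/flox pairs held more protein-coding genes on both sides. Over all pairs, 2 protein-coding genes met in 32.8% of the Wtap-CKO and 35.9% of the Wtapflox/flox pairs. Tmod1, the actin filament cap tropomodulin 1 of the sarcomere, had 2.55 and Tstd2 2.58 over 239 bases, with log10 p values of -88.2 and -88.7. Slc3a1, an amino acid transporter subunit, had 6.76 and Prepl 5.01. Hmgcs1, of cholesterol synthesis, had 4.58 and Gm48342 4.43. Ldlrad4 and Fam210a had 7.31 and 7.36. None of these 8 peaks had a Wtap-CKO counterpart. Vps4a and Pdf, at 5.32 and 8.39, both had a counterpart, and in the Wtap-CKO list their peaks, at 2.61 and 3.23, lay 7 bases apart.

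Finally, paired peaks carried part of the genes that one list had and the other did not. Of all genes with a peak, 13.3% of those in the Wtap-CKO list had none in the Wtapflox/flox list, and 11.9% of those in the Wtapflox/flox list had none in the Wtap-CKO list. Among genes with a paired peak it was 147 of 1387 (10.6%) and 120 of 1327 (9.04%). Among genes that had paired peaks only, it was 139 of 756 (18.4%, 15.7 to 21.3) and 104 of 692 (15%, 12.5 to 17.9). The number of peaks a gene had was not matched between these groups, and its part in the shares was not tested. Those 139 were 9.60% of the 1448 genes listed for Wtap-CKO alone, and those 104 were 8.14% of the 1278 listed for Wtapflox/flox alone. For each of them, the listed evidence overlapped an opposite-strand peak at every listed position.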

How the data were processed

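RNA of hearts from 4-day-old Wtap-CKO (8 mice) and Wtapflox/flox (7 mice) animals was pooled per genotype, 300 µg in all, fragmented to about 100 nt, incubated for 2 h with the m6A antibody and sequenced as immunoprecipitated and input libraries with paired 150-base reads, per the labels. Genotype and antibody labels set the 4 groups, of 1 library each.

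Per the series' design text, the authors called the peaks of each genotype with exomePeak 2.16.0, keeping q up to 0.05, and each genotype has 1 deposited list. Build GRCm39 and the tools HOMER 4.9.1, BWA 0.7.12 and fastp 0.19.11 stand in the submitters' processing notes with no stated role. Fold is the authors' linear ratio of immunoprecipitated over input reads in a peak. A deposited column gives each p-value, and the authors' log10 p and log10 q, some of which are minus infinity, were read as scores.

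Overlaps of exonic blocks were computed in Python 3.11.15 (scipy 1.17.1, pandas 2.3.3, numpy 2.4.6, and matplotlib 3.10.9 for plots). The overlap code was tested on simulated lists. A pair was 1 plus-strand and 1 minus-strand row of different gene IDs that shared at least 1 exonic base, and it was found in the other list where the same 2 gene IDs formed a pair there. Strong peaks had q at or under 1e-10. Gene types, the order of gene ends, promoter windows and microRNAs came from RefSeq (GRCm38.p6) by symbol, which 1311 of 1656 symbols with a paired peak and 11462 of 12159 in all had. The gene lists and named pairs (genes of the lists; the best supported, longest, most unequal and single-list pairs; the genes with most pairs; the microRNA genes, taken after their values were seen) were chosen with earlier results of these data known. Some pairs that these rules take are not reported here. Alternatives changed the q, fold, overlap, strand and symbol rules one at a time. No p-value was computed, since each group had 1 library.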

Additional observations from a re-analysis of the deposited data

How the results depend on the processing

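No paired analysis was possible because each genotype had 1 pooled library of each kind, and for the same reason no library could be left out. Of 66 alternative values of 10 results, 47 stayed within the interval of the value reported, or within 1.5 times a count, and 19 moved. The share of peaks that were paired moved to 6.76% in the Wtap-CKO and 6.79% in the Wtapflox/flox list where a pair had to share 50% of the shorter peak, to 8.20% and 8.17% with whole spans in place of exonic blocks, and to 3.16% and 3.40% without Gm and Rik symbols, when 320 and 332 pairs were left. Paired peaks without a counterpart became 17.9% in both lists when a counterpart could lie on either strand, and 26.8% in the Wtapflox/flox list without Gm and Rik symbols. The last of these turned the order against the other peaks, of which 23.2% were then without a counterpart. Those other peaks then took in named genes' peaks opposite a Gm or Rik gene. Under the remaining alternatives paired peaks stayed below the other peaks in both lists. For a counterpart on either strand the rule itself favours this outcome. Each paired peak overlaps an opposite-strand peak, whose counterpart may then count for it. That alternative is therefore a description only. Pairs found in the other list became 72.6% and 72.7% when both peaks themselves had to overlap a pair there, and 78.0% in the Wtapflox/flox list without Gm and Rik symbols. The median absolute difference of log2 fold became 0.15 and 0.18 with 50% overlap, 0.14 and 0.19 without Gm and Rik symbols, and 0.25 in the Wtap-CKO list with whole spans. The cause of these moves was not tested. Keeping 1 row where a gene's rows overlapped one another, an alternative chosen after seeing the data, left 829 and 823 pairs and moved no result past its interval. The lists give no depth, so a peak missing from a list may lie under its threshold, and gene ends from RefSeq placed only the pairs whose 2 symbols it holds.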
